A study of Mus musculus with 8 samples.

Results

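The 40 cell cycle genes described here are transcripts whose levels follow DNA replication and division, chosen by name. They are 40 of the 32285 genes in the deposited matrix, and all 40 were found by symbol. By the step at which their products act, 17 were taken as G1/S genes, 20 as G2/M genes and 3 as genes of broader use. They were followed through Kit-positive cells, granulocyte progenitors, immature neutrophils and mature neutrophils, with monocytes as a second myeloid line.

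The cells came from female C57BL6/J mice with subcutaneous flank tumors of MOPC cells, a mouse oropharyngeal carcinoma line. Cells of 4 tissues (blood, femoral marrow, spleen, tumor) were sorted in 2 gates, as Gr1+ cells without lineage markers and as Gr1- cKit+ cells, and 1 library of RNA with 1 of antibody tags was made per tissue. Every sample carries the same genotype label, which names WT and a gene knockout model together, and hashtag antibodies marked the mouse and condition of each cell. The map from hashtags to mice and genotypes is not given in the sources used here, so no genotype comparison was made. Wild-type and knockout cells may be mixed in any group, and the mix of each group is not known. Groups with sums from fewer hashtags, such as those of tumor, could differ from the others in this mix. All mice bore tumors, so there is no tumor-free control. Cell numbers were evened out between conditions before the sort, so the cell shares of a class are set by the sort. The tie between barcode suffix and tissue follows the order in which the sample descriptions number the libraries. Tissue and library cannot be told apart, because each tissue is 1 library.

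The 4 RNA libraries held 7763 blood, 5682 marrow, 6105 spleen and 462 tumor cells, with median depths of 3132, 7999, 3461 and 8663.5 unique molecular identifiers (UMIs, 1 per captured transcript). A single hashtag could be given to between 89.6 and 91.9% of the cells of blood, marrow and spleen, but to 47.0% of the tumor cells. Several hashtags were found on 41.3% of tumor cells and on at most 9.93% elsewhere. Barcode sequences shared between libraries numbered 31, touching 62 of 20012 cells. Results rest on UMIs summed per hashtag, tissue and class, scaled to 1000000 gene UMIs per sum (CPM, not divided by gene length). There were 8 hashtags, so a group has up to 8 sums. Since no source ties the hashtags to animals, p-values measure the spread between hashtags. In such sums, fewer cycling cells and less RNA per cycling cell cannot be told apart.

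Classes were set by marker shares that use none of the 40 genes. Granulocyte progenitors had at least 0.5% of their UMIs in the azurophil granule genes Mpo, Elane, Prtn3 and Ctsg, immature neutrophils at least 1% in the specific granule genes Camp, Ngp and Ltf, and mature neutrophils at least 3% in S100a8 and S100a9. Monocytes had at least 2 Ly6c2 UMIs and 1 Csf1r UMI, and Kit-positive cells at least 1 Kit UMI. Each cell went to the first class it met, in the order progenitor, immature, mature, monocyte, Kit. The markers showed mixed classes in places. Kit-positive cells carried all 7 erythroid markers, at 2220 CPM in spleen and 2405 CPM in marrow, and B and plasma cell markers between 34.4 and 7098 CPM over spleen hashtags and between 0 and 8835 CPM over marrow hashtags. Of the 381 marrow granulocyte progenitors, 208 also met the Kit rule and 213 the monocyte rule.

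Cells that divide copy their DNA in S phase and separate it in mitosis, and the genes for each step are switched on in turn. E2F factors drive the G1/S genes, which make nucleotides (Rrm1, Rrm2, Tyms, Tk1), load and form the replicative helicase (Cdc6, Mcm2 to Mcm7, Gins2) and hold the polymerase on DNA (Pcna, Pclaf). The G2/M genes encode mitotic kinases, cyclins, kinetochore proteins and spindle motors. Their promoters often carry CHR elements, which MuvB complexes bind, and CCAAT boxes, which the factor NF-Y binds. In granulopoiesis, progenitors that fill azurophil granules divide on into the stage that makes specific granules, and band and segmented neutrophils no longer divide.

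Promoters were read for 33 of the 40 genes from RefSeq windows of mouse build GRCm38.p6, each running from 250 bases before to 50 bases after the gene's start. Ccna2, Stmn1, Mcm4, Aurkb, Tpx2, Ccne2 and Gins2 had no window. Motif letters were searched on both strands. The CHR letters TTTGAA were in the windows of 13 of 17 G2/M genes (76.5%), in 1 of 14 G1/S genes (7.14%, Mcm2) and in 17.9% of all 32851 windows. The CCAAT box was in 16 of 17 G2/M genes (94.1%), in 10 of 14 G1/S genes (71.4%) and in 37.4% of all windows. The E2F letters TTTCCCGC or TTTGGCGC were in 6 of 14 G1/S genes (42.9%), in 0 of 17 G2/M genes and in 1.56% of all windows. A match is a stretch of letters and was not tested as a binding site. The 4 windows below are shown because their genes mark the patterns that follow. Cdc20 and Ccnb2 in immature neutrophils overlapped their progenitor range, Mcm6 did not, and Kif23 parted from the other G2/M genes in mature neutrophils. Sequences run 5′ to 3′ along the gene's strand, and capitals mark CHR and E2F letters and CCAAT, which reads ATTGG when it lies on the other strand.
Cdc20, chr4:118437294-118437593, minus strand: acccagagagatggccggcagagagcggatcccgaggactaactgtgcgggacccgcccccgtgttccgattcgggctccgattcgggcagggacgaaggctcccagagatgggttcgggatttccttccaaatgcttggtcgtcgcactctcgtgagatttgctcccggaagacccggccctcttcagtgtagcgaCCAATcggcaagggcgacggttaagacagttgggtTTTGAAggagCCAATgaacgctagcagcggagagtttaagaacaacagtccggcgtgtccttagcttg
Ccnb2, chr9:70421505-70421804, minus strand: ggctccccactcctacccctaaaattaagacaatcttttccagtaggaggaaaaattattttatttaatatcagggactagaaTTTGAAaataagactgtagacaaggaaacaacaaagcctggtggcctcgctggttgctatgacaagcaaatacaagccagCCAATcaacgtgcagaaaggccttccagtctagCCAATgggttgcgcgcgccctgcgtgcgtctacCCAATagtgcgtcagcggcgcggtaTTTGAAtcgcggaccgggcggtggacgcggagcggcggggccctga
Kif23, chr9:61946750-61947049, minus strand: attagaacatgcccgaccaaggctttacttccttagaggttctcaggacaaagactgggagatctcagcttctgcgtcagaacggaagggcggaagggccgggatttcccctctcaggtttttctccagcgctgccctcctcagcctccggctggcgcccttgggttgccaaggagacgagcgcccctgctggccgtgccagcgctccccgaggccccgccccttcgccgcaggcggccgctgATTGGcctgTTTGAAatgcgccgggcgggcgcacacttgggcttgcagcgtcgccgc
Mcm6, chr1:128359656-128359955, minus strand: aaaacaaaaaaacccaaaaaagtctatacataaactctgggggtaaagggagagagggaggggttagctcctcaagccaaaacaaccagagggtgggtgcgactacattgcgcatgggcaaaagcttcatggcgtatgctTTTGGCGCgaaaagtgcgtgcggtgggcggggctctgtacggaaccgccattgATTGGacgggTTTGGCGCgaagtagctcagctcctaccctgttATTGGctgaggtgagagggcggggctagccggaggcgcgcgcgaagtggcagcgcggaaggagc
The Cdc20 window held its CHR letters 18 bases before the start and CCAAT 53 and 8 bases before it. Kif23 had the same pair of letter sets, CHR 2 bases after the start and CCAAT 7 bases before it on the opposite strand. The Mcm6 window held E2F letters 110 and 47 bases before the start and no CHR letters.

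The summed G1/S genes were high in progenitors and fell off at the immature stage. The summed G2/M genes had a lower median at the immature stage but overlapped their progenitor range until the mature stage. In marrow the G1/S sum ran from 1313 to 1739 CPM over hashtags in Kit-positive cells (median 1628, n = 8 hashtags in each marrow class), from 1795 to 2494 in granulocyte progenitors (2252), from 341 to 740 in immature neutrophils (519) and from 39.3 to 374 in mature neutrophils (81.7). The G2/M sum ran from 1941 to 3274 CPM in Kit-positive cells (2365), from 1412 to 3011 in granulocyte progenitors (2738), from 1628 to 2194 in immature neutrophils (1895) and from 130 to 355 in mature neutrophils (234). Immature neutrophils and progenitors did not overlap in the G1/S sum and did overlap in the G2/M sum, where the medians were 1895 and 2738 CPM. The progenitor sums held 14 to 66 cells each and the immature sums 63 to 420. The ratio of G2/M to G1/S UMIs within a sum was 2.50 to 4.78 in immature neutrophils (median 3.73), against 0.566 to 1.55 in granulocyte progenitors (1.22), with no overlap. That ratio takes both sums from the same cells and so does not depend on how libraries are scaled.

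**Figure D1:**
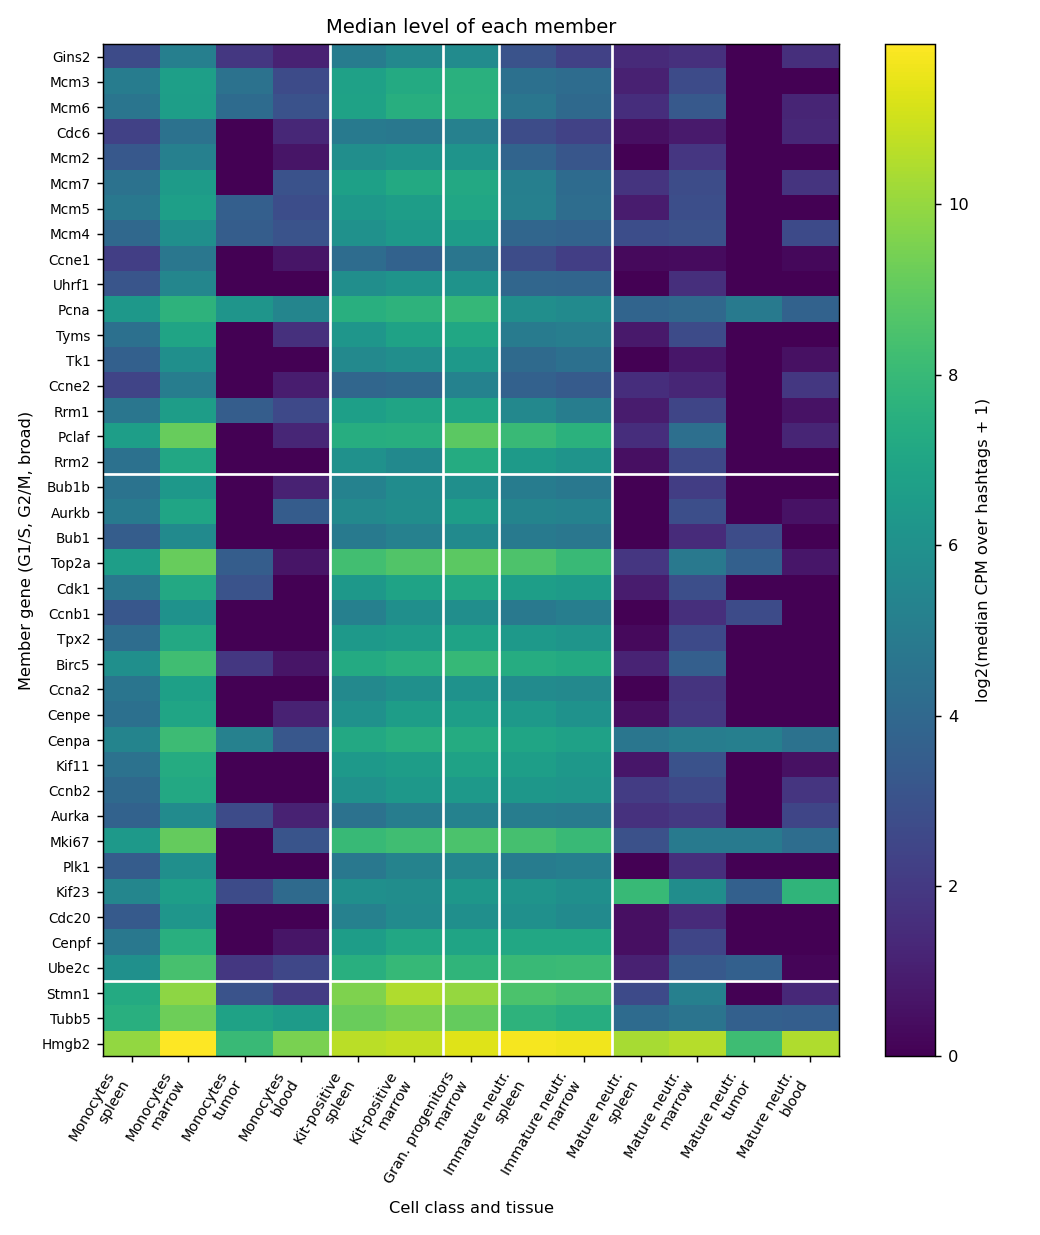
Levels of the 40 genes (rows, by role) in the 13 groups of class and tissue (columns), as log2(median CPM over hashtags + 1); dark cells are low and bright cells high. G1/S rows darken more than G2/M rows between marrow granulocyte progenitors and immature neutrophils, and the Kif23 row is high in mature neutrophils of spleen and blood.

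**Figure D2:**
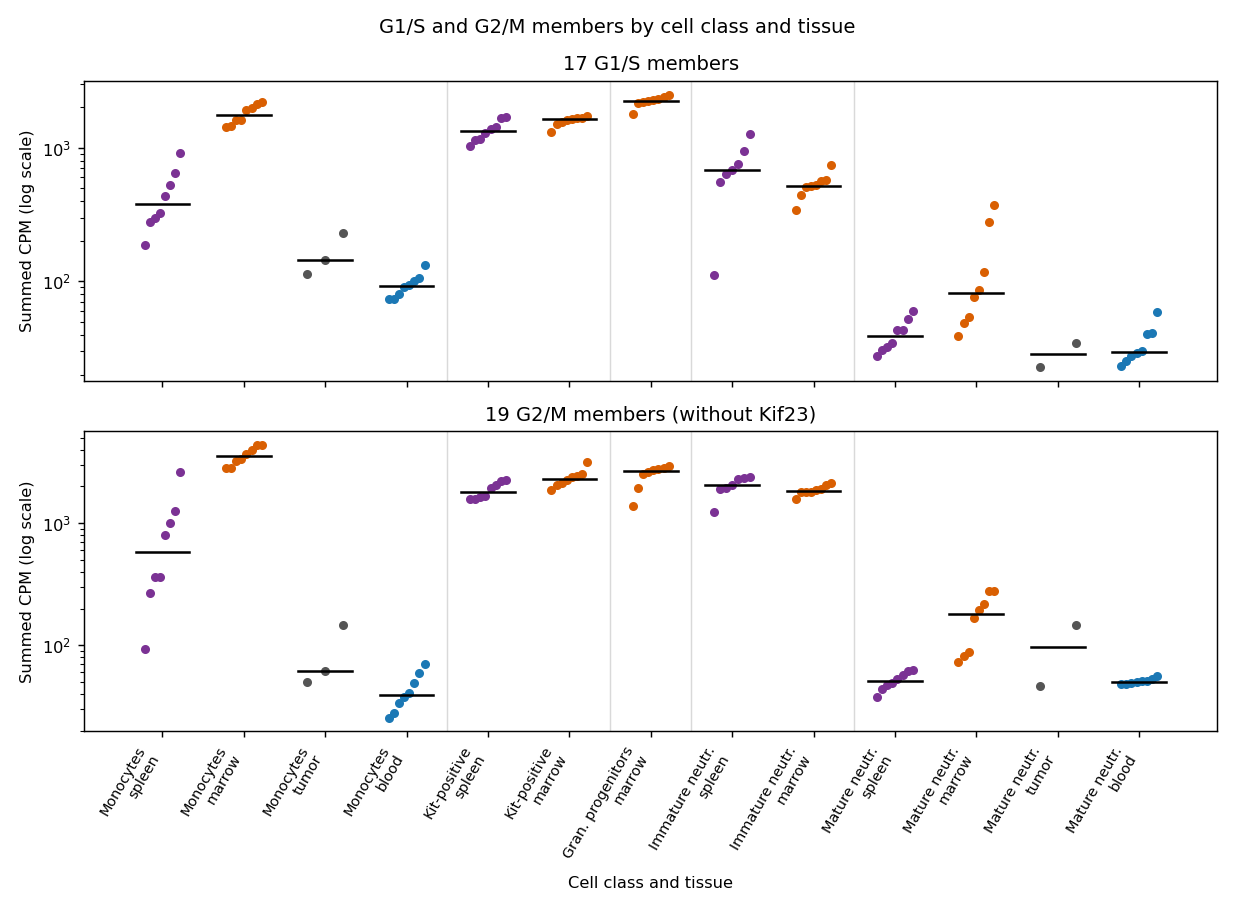
Summed CPM of the 17 G1/S genes and of 19 G2/M genes (all but Kif23) per hashtag on a log axis, with 1 dot per hashtag and a line at the median, for each class and tissue. G2/M sums of marrow immature neutrophils have a lower median than those of granulocyte progenitors but overlap them, and G1/S sums do not overlap.

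Granulocyte progenitors of marrow differed little from Kit-positive cells of marrow in most of the 40 genes. By edgeR's quasi-likelihood test with Benjamini-Hochberg adjustment over 12261 genes (a gene is called at an adjusted p under 0.05), 9 genes rose and 0 fell, beside 18.7% of all genes higher and 23.6% lower. Among G1/S genes 6 of 17 rose, with a list median of 0.25 on the log2 scale beside -0.09 over all genes, and among G2/M genes 2 of 20 rose (Aurkb and Kif23), with a median of 0.16. Rrm2, the small subunit of ribonucleotide reductase, ran from 129 to 174 CPM in granulocyte progenitors (median 160.2), against 32.0 to 67.5 CPM in Kit-positive cells (48.2). All 8 progenitor sums lay above all Kit-positive sums, and the log2 fold change was 1.65 ± 0.21 (SE, edgeR adjusted p = 5.9e-10). Pclaf, a PCNA-binding factor, ran from 348 to 577 CPM in granulocyte progenitors (median 477), against 130.2 to 214 CPM in Kit-positive cells (173). Its groups did not overlap either, at a log2 fold change of 1.45 ± 0.28 (edgeR adjusted p = 1.35e-05).

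The other G1/S calls were Ccne2 at 1.09 ± 0.23, Ccne1 at 0.78 ± 0.28, both cyclins that drive entry into S phase, Tk1 at 0.49 ± 0.17 and Mcm5 at 0.42 ± 0.15 (log2 fold change ± SE). Aurkb, the kinase of the chromosomal passenger complex, rose by 0.67 ± 0.18, and the chromatin protein gene Hmgb2 by 0.45 ± 0.12. The count was 17 when cells that meet the Kit rule were taken as Kit-positive before any other rule, and 5 higher with 2 lower when the class thresholds were doubled. The 7 erythroid markers moved with this contrast, at 7.59 to 22.3 CPM over hashtags in granulocyte progenitors and 2055 to 3271 CPM in Kit-positive cells of marrow, and their part in it was not tested.

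At the step from granulocyte progenitors to immature neutrophils in marrow, all 17 G1/S genes fell. The drop was largest for Gins2, a subunit of the replicative helicase, at -3.53 ± 0.21, and smallest for Rrm2, at -1.13 ± 0.18 (log2 fold change ± SE). The G1/S median was -2.39, beside -0.98 over all genes, and 62.9% of all genes were called lower and 18.1% higher by edgeR. Mcm3, a subunit of the MCM helicase, ran from 6.36 to 35.5 CPM in immature neutrophils (median 17.1), against 138 to 205 CPM in granulocyte progenitors (188). Every immature sum was below every progenitor sum, and the log2 fold change was -3.37 ± 0.20 (edgeR adjusted p = 5.03e-24). Mcm6 behaved alike, with 7.14 to 48.0 CPM in immature neutrophils (median 15.5), against 161 to 238 CPM in granulocyte progenitors (188.5). Pcna, the sliding clamp of the replicative polymerases, ran from 25.5 to 100.3 CPM in immature neutrophils (median 50.8), against 196 to 285 CPM in granulocyte progenitors (239), with no overlap.

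The G2/M genes moved less at this step, and their direction depended on the scaling. With total UMIs as library size 13 of 20 fell and 0 rose (median -0.50), beside 62.9% of all genes lower and 18.1% higher (median -0.98). The share that fell was near that of all genes. With TMM factors 0 fell and 11 rose (median 0.48), and with DESeq2's size factors 2 fell and 3 rose (median 0.09). TMM moved the median of all genes by 0.94, to -0.04, and raised the share of higher among all called genes to 49.1%, against 22.4% with total UMIs, and DESeq2 by 0.53, to 36.1%. The G1/S genes fell under each scaling, 15 of 17 with TMM (median -1.42) and 15 of 17 with DESeq2 (median -2.03). The 7 mature neutrophil markers, S100a8 and S100a9 among them, summed to between 325895 and 364801 CPM over hashtags in immature neutrophils, against 4074 to 27829 CPM in granulocyte progenitors, and their part in the shift was not tested.

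Cdc20, the activator of the anaphase-promoting complex, ran from 42.7 to 58.9 CPM in immature neutrophils (median 50.2), against 8.30 to 72.1 CPM in granulocyte progenitors (60.1). The immature values lay inside the progenitor range, and the log2 difference of -0.17 ± 0.18 was not called (edgeR adjusted p = 0.359). Ube2c, the ubiquitin-conjugating enzyme of the same complex, ran from 211 to 318 CPM in immature neutrophils (median 269.5), against 60.9 to 284 CPM in granulocyte progenitors (215), a log2 difference of 0.42 ± 0.22 that was not called (edgeR adjusted p = 0.0755). Mki67, the proliferation marker Ki-67, ran from 218 to 297 CPM in immature neutrophils (median 264), against 202 to 397 CPM in granulocyte progenitors (364), and its groups overlapped. Within the G2/M list the lowest values were those of Bub1b (-1.31 ± 0.19) and Aurkb (-1.30 ± 0.17), a spindle checkpoint kinase and the passenger kinase.

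The 3 broad genes parted at this step. Hmgb2, an HMG-box chromatin protein, ran from 2883 to 3472 CPM in immature neutrophils (median 3133), against 2043 to 2723 CPM in granulocyte progenitors (2515). It rose in all 8 sums without overlap, by 0.35 ± 0.12 (edgeR adjusted p = 0.00483), though with the Kit rule first the value was -0.14. Stmn1, a protein that destabilises microtubules, ran from 222 to 376 CPM in immature neutrophils (median 326), against 926 to 1203 CPM in granulocyte progenitors (1028), and fell by 1.72 on the log2 scale. Tubb5, a beta-tubulin, fell by 1.63.

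**Figure D3:**
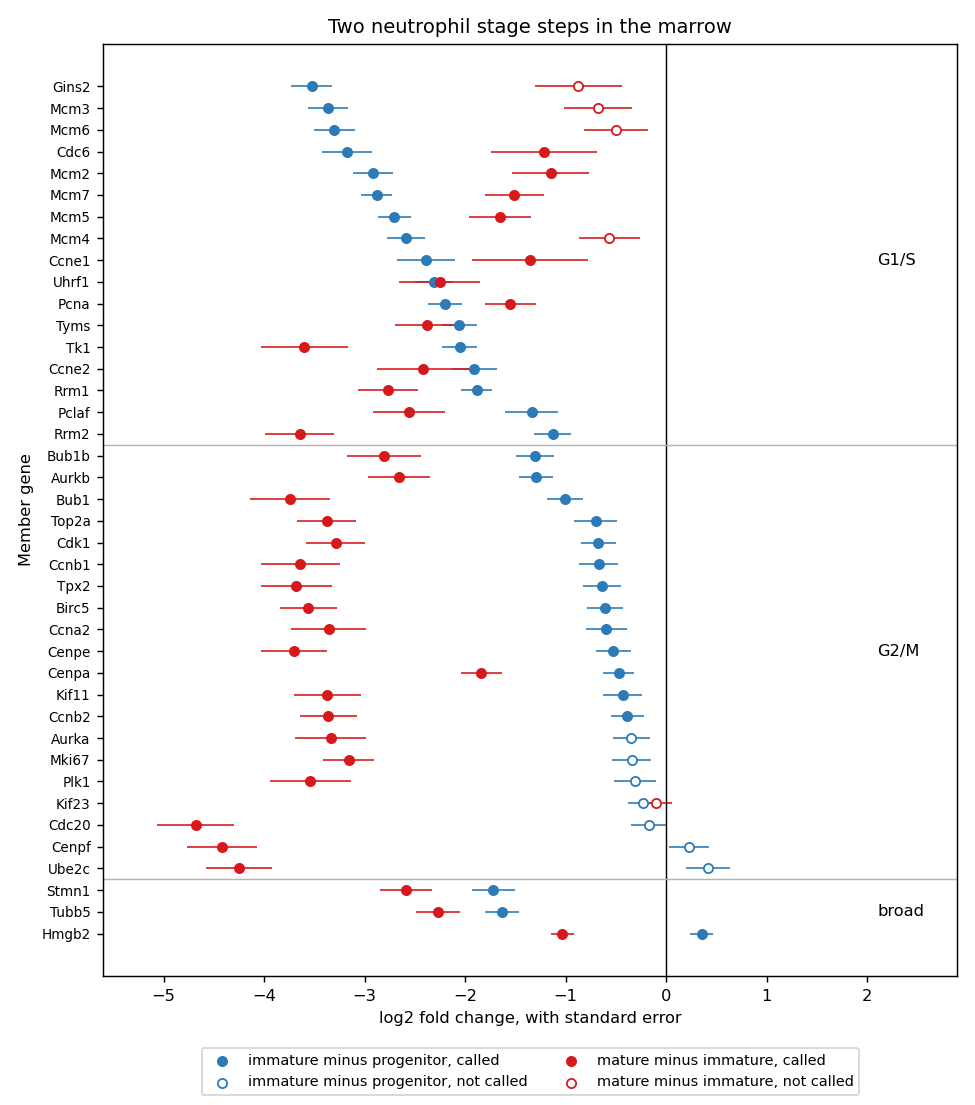
Log2 fold change with SE of each of the 40 genes at 2 marrow steps, immature neutrophils minus granulocyte progenitors and mature minus immature neutrophils; filled points were called by edgeR (8 sums each). The MCM genes drop mainly at the first step and most G2/M genes at the second, but 15 of the 20 G2/M genes change sign at the first step with TMM scaling, which shifts the median of all genes by 0.94.

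Within the immature class, G2/M UMIs lay in the cells richest in specific granule transcripts. Among marrow cells with 1 hashtag, the G2/M sum was 459 CPM in 150 cells with 1 to 2% of UMIs in Camp, Ngp and Ltf, 257 CPM in 293 cells with 2 to 5%, 1890 CPM in 729 cells with 5 to 10% and 2659 CPM in 543 cells above 10%. The G1/S sum was 358, 175, 534 and 659 CPM in the same bins, and the ratio of G2/M to G1/S was 1.28, 1.46, 3.54 and 4.04. In the 129 spleen cells with 5 to 10% the ratio was 2.44, and in the 51 cells above 10% it was 4.30. Median depth differed across the marrow bins, from 6183.5 UMIs in the lowest to 11732 in the highest. These are descriptions of binned cells, with no test.

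Among granulocyte progenitors of marrow the order ran the other way. The G1/S sum was 2666, 2200, 1915 and 1681 CPM in cells with 0.5 to 1%, 1 to 2%, 2 to 4% and over 4% of UMIs in the azurophil genes (110, 130, 73 and 25 cells). The G2/M sum was 3225, 2745, 2098 and 1279 CPM in these bins. The make-up of the bins moved with this order: the monocyte rule was also met by 71, 91, 26 and 2 cells and the Kit rule by 36, 65, 60 and 19, and their part in the order was not tested.

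**Figure D4:**
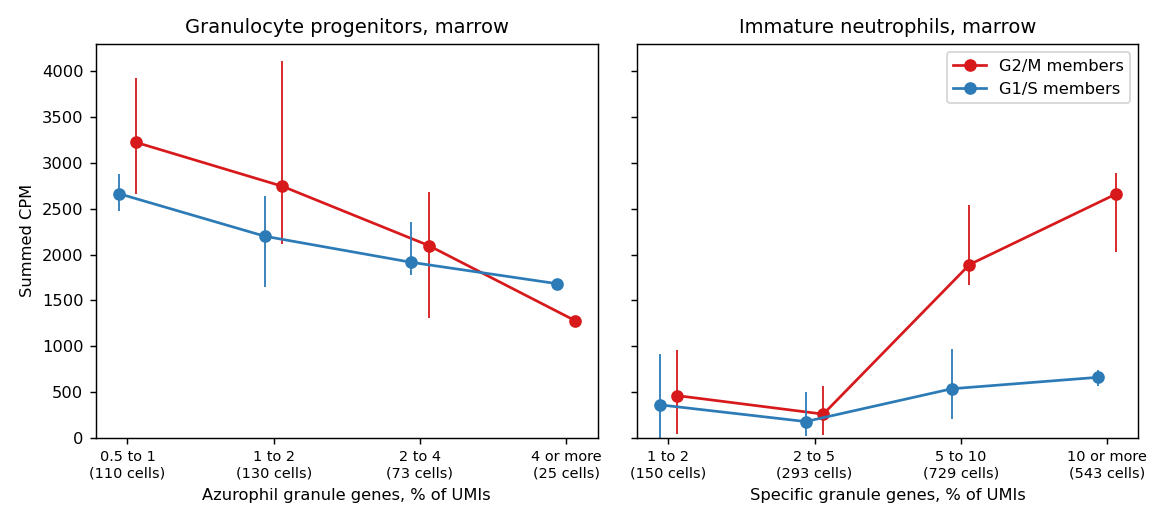
Summed CPM of G1/S and G2/M genes in marrow cells with 1 hashtag, for granulocyte progenitors by azurophil share and immature neutrophils by specific granule share of a cell's UMIs; points pool the cells of a bin, and vertical lines run from the lowest to the highest hashtag. G2/M values of immature neutrophils are 459 and 257 CPM in the lower bins and 1890 and 2659 CPM in the upper ones.

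The cycling transcripts of immature neutrophils sat in few cells. Of 1715 marrow immature neutrophils with 1 hashtag, 122 (7.11%) held 50% of the UMIs of the G2/M genes without Kif23 and 51.7% of cells had none, against 60 of 338 granulocyte progenitors (17.8%) and 1.48% with none. Median depth was 8988 UMIs in these immature neutrophils and 29003.5 in these progenitors, so the shares above stand at unlike depths. Each cell was then thinned to 1000 UMIs to compare cells at 1 depth. Thinned UMIs are still shares of a cell's total, of which the mature neutrophil markers took far more in immature neutrophils than in progenitors. Their part in the thinned shares was not tested. At least 2 UMIs of G2/M genes without Kif23 were found in 20.3% of 2029 marrow immature neutrophils (95% exact Clopper-Pearson interval 18.5 to 22.1%), against 50% of 378 granulocyte progenitors (44.8 to 55.2%). At least 2 G1/S UMIs were found in 8.67% of the immature neutrophils (7.49 to 9.98%), against 58.2% of the progenitors (53.0 to 63.2%). In the thinned cells, immature neutrophils with G2/M UMIs but under 2 G1/S UMIs made up 14.4%, those with the reverse 2.86% and those with both 5.82%. Without thinning these shares were 6.12, 5.88 and 25.1%, and those with either alone were then about as many. Without thinning, G2/M UMIs were found in 31.2% of immature neutrophils and 97.4% of progenitors, and G1/S UMIs in 31.0 and 97.4%.

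Mature neutrophils of marrow, from the same library, had such G2/M UMIs in 1.54% of 1822 thinned cells (1.02 to 2.21%) and G1/S UMIs in 1.48% (0.979 to 2.15%). Those of blood, another library, had them in 0.217 and 0.267% of 5999 cells. The marrow class cannot gauge free RNA alone. Of its cells with 1 hashtag, 137 also met the monocyte or the Kit rule and held 51.8% of the G2/M UMIs. Median depths were 2998 UMIs in blood mature neutrophils and 8988 in marrow immature neutrophils with 1 hashtag before thinning. Thinning left out 13 immature and 3 progenitor cells of marrow and 19 mature cells of blood. These intervals cover counting error only.

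At the step from immature to mature neutrophils in marrow the G2/M genes fell, all but Kif23. Of 20, 19 fell, with a median of -3.37 beside -0.12 over all genes, while 29.1% of all genes were called lower and 25.2% higher by edgeR. Cdc20 ran from 0 to 4.73 CPM in mature neutrophils (median 1.73), against 42.7 to 58.9 CPM in immature neutrophils (50.2), at -4.68 ± 0.38 (edgeR adjusted p = 4.66e-17). Ube2c ran from 3.92 to 29.97 CPM in mature neutrophils (median 9.10), against 211 to 318 CPM in immature neutrophils (269.5), at -4.25 ± 0.33. Top2a, the topoisomerase that untangles chromosomes, ran from 3.02 to 75.5 CPM in mature neutrophils (median 26.7), against 228 to 325 CPM in immature neutrophils (268), at -3.38 ± 0.29. In all 3 genes the mature sums lay below the immature ones without overlap. Mki67 ran from 5.87 to 53.6 CPM in mature neutrophils (median 28.1) and fell by 3.16. Cenpa, the centromeric histone, moved least of the called ones, at -1.84 ± 0.20.

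Among G1/S genes 13 of 17 fell (median -1.55). Rrm2 had the largest drop at -3.65 ± 0.34, with 1.96 to 10.6 CPM in mature neutrophils (median 5.00), against 51.6 to 94.4 CPM in immature neutrophils (70.1). Mcm3, Mcm4, Mcm6 and Gins2, already low at the immature stage, were not called, at -0.68, -0.57, -0.50 and -0.87. Hmgb2 ran from 1299 to 1854 CPM in mature neutrophils (median 1515) and fell by 1.03 on the log2 scale. Tubb5 fell by 2.27 and Stmn1 by 2.59.

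A small set of cells carried what was left in the mature class of marrow. Of its 1681 cells with 1 hashtag, 137 also met the monocyte or the Kit rule and held 51.8% of the G2/M UMIs and 47.9% of the G1/S UMIs. Their G2/M sum was 994 CPM, against 132 CPM in the other 1544 cells, and their G1/S sum was 490.3 CPM, against 76.1 CPM. The 5 highest cells held 50% of the UMIs of the G2/M genes without Kif23. The sum of the 6 monocyte markers was 934 CPM in marrow mature neutrophils (489 to 974 over hashtags), and mature cells with several hashtags, left out of the sums, had a G2/M sum of 1305 CPM. In an alternative chosen after seeing the data, cells that meet the monocyte or Kit rule were removed before the mature rule was applied. The immature class, set earlier in the order, kept its own such cells. Of 2072 marrow cells that met the immature rule, 338 also met the Kit rule and 178 the monocyte rule. All members but Kif23 then fell at this step, Cenpf by 6.36 on the log2 scale, Mcm3 by 1.48 and Mcm6 by 0.91. Only the mature side lost such cells, which held 51.8% of its G2/M UMIs, so this setting cannot gauge the depth of the fall.

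In spleen the same step gave 39 genes lower and 1 higher, beside 26.4% of all genes lower and 29.2% higher by edgeR. All 17 G1/S genes fell (median -3.63, beside 0.07 over all genes), 19 of 20 G2/M genes fell (median -6.32) and Kif23 rose. Top2a ran from 0 to 3.93 CPM in mature neutrophils of spleen (median 2.64, n = 8 hashtags), against 113 to 414 CPM in immature neutrophils of spleen (377, n = 7 hashtags), at -7.07 ± 0.42. Mki67 ran from 5.43 to 14.4 CPM in mature neutrophils (median 6.81), against 161 to 442 CPM in immature neutrophils (331), at -5.28 ± 0.31. Neither gene's groups overlapped. DESeq2's size factors moved the median of all genes by -0.34 at this step and the share of higher among all called genes to 42.4%, against 52.6% with total UMIs, though each of the 40 genes kept its direction there under both scalings.

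The drop was steeper in spleen than in marrow for 24 of the 40 genes by the test of the difference, and Kif23 went the other way. The difference, spleen minus marrow, was called lower for 10 G1/S, 12 G2/M and 2 broad genes, beside 5.21% of all genes lower and 9.84% higher by edgeR. It was -3.69 ± 0.62 for Top2a (edgeR adjusted p = 8.12e-06), -3.72 ± 0.74 for Pclaf, -3.25 ± 0.48 for Stmn1 and 1.99 ± 0.24 for Kif23 (edgeR adjusted p = 1.26e-09). With the monocyte and Kit rules taken before the mature rule, a choice made after seeing the data, 5 genes were lower. These were Cdk1 at -2.59, Mcm5 at -3.18, Mcm6 at -2.55, Pclaf at -3.24 and Stmn1 at -2.0, and Kif23 was higher at 2.01. The immature classes of both tissues kept the cells that meet those rules in this setting. With cells thinned to 1000 UMIs 3 were lower, of 35 tested. The share of higher among all called genes was 44.7% with DESeq2, against 65.4% with total UMIs.

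Kit-positive cells of spleen had lower cell cycle levels than those of marrow in 18 of the 40 genes, and 0 were higher. The class holds what the other rules left, 469 of the 1050 marrow cells and 787 of the 882 spleen cells that met the Kit rule. The background was 20.4% of all 10374 genes tested lower and 17.8% higher by edgeR. Stmn1 ran from 634 to 898 CPM in spleen (median 779), against 1186 to 1622 CPM in marrow (1395), with no overlap, and had the largest fall at -0.85 ± 0.07 (edgeR adjusted p = 1.26e-08). Cdk1, the kinase that drives mitotic entry, ran from 72.1 to 95.5 CPM in spleen (median 80.2), against 91.6 to 153 CPM in marrow (118), and fell by 0.60 on the log2 scale with ranges that overlap at their ends (edgeR adjusted p = 1.06e-04). Tyms, thymidylate synthase, ran from 47.0 to 105 CPM in spleen (median 74.6), against 95.9 to 130.5 CPM in marrow (115), at -0.63 ± 0.12. In all, 6 of 17 G1/S genes fell (median -0.25), 10 of 20 G2/M genes (median -0.38) and 2 of 3 broad genes, beside a median of -0.07 over all genes.

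The helicase genes called were Mcm6 at -0.56, Gins2 at -0.48, Mcm7 at -0.45, Mcm4 at -0.36 and Mcm5 at -0.25. The mitotic genes called included cyclin B1 (Ccnb1, -0.66), Polo-like kinase (Plk1, -0.62), Cdc20 (-0.54) and Aurora A (Aurka, -0.50). Leaving out hashtag 3 gave 11 genes lower, and the thinned cells 4 of 13 tested. With the Kit rule first 2 genes changed sign, 9 others gained a call and 2 lost theirs. With DESeq2 57.1% of all called genes were higher, against 46.6% with total UMIs. The make-up of the class moved with tissue: stem and progenitor markers summed to 311 to 434 CPM over spleen hashtags, against 650 to 1461 CPM over marrow hashtags, megakaryocyte and platelet markers to 8.05 CPM in spleen and 549 CPM in marrow, and azurophil markers to 17.9 CPM in spleen and 634 CPM in marrow. Their part in the lower levels was not tested.

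No difference in these genes was called between immature neutrophils of spleen and marrow. Of 39 tested, edgeR called 0, beside 0.611% of all 7861 genes higher and 0.522% lower. At an unadjusted p under 0.05 there were 5, all higher in spleen, and DESeq2 called 1 higher. Leaving out hashtag 1 gave 3 higher and leaving out hashtag 2 gave 1. The share of higher among all called genes was 40% with TMM, against 53.9% with total UMIs. The smallest adjusted p was that of Mcm5, at 0.96 ± 0.26 (edgeR adjusted p = 0.0736). The spread in spleen was wide, with G1/S sums of 113 to 1260 CPM over 7 hashtags (median 678), against 341 to 740 CPM over 8 marrow hashtags (519). At least 2 G2/M UMIs without Kif23 were found in 27.3% of 227 thinned spleen cells, against 20.3% of 2029 marrow cells.

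Granulocyte progenitors of spleen numbered 31, too few per hashtag for a test, so their pooled UMIs were set against those of the 381 marrow cells. The ratio of spleen to marrow was 1.04 for the G1/S sum (95% exact interval 0.993 to 1.09), 0.863 for the G2/M sum (0.823 to 0.904) and 1.07 for the broad sum (1.03 to 1.10). Single genes went both ways, with Hmgb2 at 1.24 (1.19 to 1.29) and Cdk1 at 0.602 (0.469 to 0.762). These intervals cover counting error only. Specific granule markers summed to 21407 CPM in the spleen cells, against 4758 CPM in the marrow cells.

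Mature neutrophils of blood and spleen held few UMIs of these genes, apart from Kif23 and Hmgb2. The G1/S sum ran from 39.3 to 374 CPM in marrow (median 81.7, n = 8 hashtags), from 27.5 to 60.5 CPM in spleen (38.7, n = 8) and from 23.2 to 58.6 CPM in blood (29.7, n = 8). Without Kif23 the G2/M sum ran from 72.4 to 279 CPM in marrow (181), from 38.0 to 62.7 CPM in spleen (50.9) and from 47.8 to 56.5 CPM in blood (50.3). Marrow sums lay above those of blood without overlap for G2/M, whereas spleen and blood overlapped. Only 17 of the 40 genes held at least 100 UMIs summed over the mature neutrophils of the 3 tissues and were tested. Some passed mainly through marrow, such as Birc5 with 85 UMIs in marrow, 12 in spleen and 3 in blood and Ube2c with 96, 18 and 6, so the counts of called genes are given as a description of these 17 and not of all 40.

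Between marrow and blood, 12 of 17 genes were higher in marrow and Kif23 was lower, beside 11.5% of all 8500 genes higher and 36% lower by edgeR. Some of the 12 passed the filter mainly through marrow, where they are high, so this count is no test of the list. With the hashtag as a block 14 were higher, Pcna and Hmgb2 being added, and 1 was lower. Of G1/S genes 4 of 6 rose, Pclaf at 3.71 ± 0.60, Mcm3 at 3.47 ± 0.71, Mcm6 at 2.81 ± 0.59 and Mcm7 at 1.19. Of G2/M genes 6 of 8 rose, among them Birc5, the passenger protein survivin, at 5.60 ± 0.44, Ube2c at 4.97 ± 0.58 and Top2a at 4.38 ± 0.50. Some of these genes passed the filter mainly through marrow, Birc5 and Ube2c among them. The calls in this paragraph are therefore a description and not support. Without thinning, Top2a was found in 75 of 1835 marrow, 28 of 3214 spleen and 22 of 6018 blood mature neutrophils. Stmn1 ran from 12.1 to 162 CPM in marrow (median 35.2), against 0 to 4.67 CPM in blood (1.54), at 4.75 ± 0.45 with no overlap. Mki67 was called higher at 0.79 ± 0.23, but its ranges overlapped, at 5.87 to 53.6 CPM in marrow (median 28.1), against 11.4 to 23.0 CPM in blood (17.9).

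These calls rested in part on the 137 marrow cells described above. With the monocyte and Kit rules first, 3 of 12 tested genes were higher, Mcm6 at 2.56, Pclaf at 2.81 and Stmn1 at 3.45, and 3 were lower, Aurka at -1.54, Kif23 at -1.90 and Mki67 at -0.75. With thinned cells 0 of 6 were higher and Kif23 was lower, while Mki67 was at -0.25 and not called. Leaving out hashtag 3 gave 7 higher. TMM factors moved the median of all genes by 0.23 and the share of higher calls to 47.0%, against 24.3% with total UMIs. Specific granule markers summed to between 5517 and 7800 CPM over marrow hashtags, and to 1436 CPM in blood.

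Between spleen and blood, 2 of 17 genes were higher in spleen and 1 was lower, beside 11.2% of all genes higher and 6.55% lower by edgeR. Mki67 ran from 5.43 to 14.4 CPM in spleen (median 6.81), against 11.4 to 23.0 CPM in blood (17.9), and fell by 1.13 on the log2 scale (edgeR adjusted p = 0.00363). Both genes called higher in spleen passed the filter mainly through marrow. Birc5 was at 2.41 ± 0.62 and rested on 12 UMIs in spleen and 3 in blood, a ratio of 7.61 (95% exact counting interval 2.05 to 42.0). Ube2c was at 2.21 ± 0.78 (edgeR adjusted p = 0.0461). Leaving out any 1 hashtag left at most 1 gene higher. Hashtags pair the sums of blood and spleen, and with the hashtag as a block 4 genes were higher, Ube2c, Stmn1, Birc5 and Kif23, and 2 were lower, Mki67 and Hmgb2. The share of higher among all called genes was 45.3% with TMM, against 63.2% with total UMIs.

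Mature neutrophils of tumor gave 2 hashtag sums, too few for a test, so the pooled UMIs of all 73 cells, those with several or no hashtag included, were set against those of blood. Hmgb2 UMIs were 177 in tumor cells and 30058 in blood cells, 0.241 times the blood CPM (95% exact interval 0.207 to 0.279). Cenpa was at 2.13 times the blood level (1.35 to 3.21), from 24 UMIs in tumor and 461 in blood. The G1/S sum was at 1.01 times the blood level (0.629 to 1.54) and the G2/M sum without Kif23 at 1.70 times (1.24 to 2.28). Mki67 was at 1.03 times (0.467 to 1.98), so a change in it was not detectable at this depth. Specific granule markers summed to 488 CPM in the tumor cells, with Camp, Ngp and Fcnb at 0.

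Kif23 (ENSMUSG00000032254), a kinesin of the central spindle that acts in cytokinesis, did not follow the other G2/M genes. Through the marrow stages it ran from 38.9 to 77.96 CPM in Kit-positive cells (median 55.2), from 24.9 to 86.7 in granulocyte progenitors (76.4), from 51.6 to 85.7 in immature neutrophils (60.2) and from 43.6 to 75.5 in mature neutrophils (56.1). These 4 ranges overlapped, and the step to mature neutrophils was -0.10 ± 0.16 (edgeR adjusted p = 0.632). Outside the marrow mature neutrophils had more, with 215 to 286 CPM in spleen (median 253) and 167 to 234 CPM in blood (218).

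The spleen sums lay above those of spleen immature neutrophils, at 25.7 to 88.4 CPM (median 70.2), without overlap, at 1.89 ± 0.17 (edgeR adjusted p = 2.92e-15). Mature neutrophils of marrow were lower than those of blood by 1.89 on the log2 scale (edgeR adjusted p = 1.24e-15), also without overlap. In the tumor the 2 sums were 11.3 and 11.6 CPM. Pooled, Kif23 in tumor mature neutrophils was at 0.0726 times the blood level (95% exact interval 0.0313 to 0.143, 8 and 4511 UMIs).

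The same order was seen in shares of cells. After thinning to 1000 UMIs, Kif23 was found in 21.3% of spleen mature neutrophils (95% exact Clopper-Pearson interval 19.9 to 22.7%), 19.3% of those of blood (18.3 to 20.3%) and 5.49% of those of marrow (4.49 to 6.64%). In tumor 0 of 73 thinned cells held it, which allows a share of up to 4.11% by the floor of 3 counts and 4.93% by the exact interval. In blood monocytes of the same library the share was 1.69% (0.773 to 3.18%). Without thinning the shares in mature neutrophils were 47.6% in spleen, 44.8% in blood, 18.9% in marrow and 9.59% in tumor. Among blood mature neutrophils the cells that also met the monocyte or Kit rule had less, at 118 CPM in 109 cells, against 215 CPM in the other 5472. No other annotated gene overlaps Kif23 in RefSeq GRCm38.p6.

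**Figure D5:**
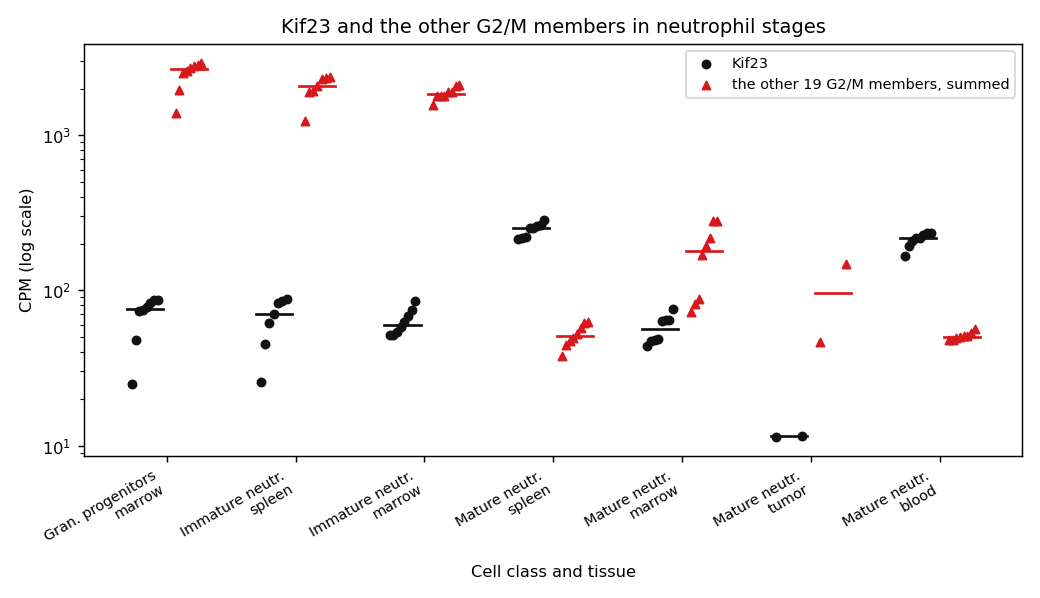
CPM of Kif23 (dots, 1 per hashtag) and of the other 19 G2/M genes summed (triangles) in each class and tissue on a log axis, with lines at the medians. Kif23 is at 253 and 218 CPM in mature neutrophils of spleen and blood, where the other 19 genes together are at 50.9 and 50.3 CPM.

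Monocytes of marrow had higher levels of all 40 genes than mature neutrophils of marrow, beside 57.9% of all genes higher and 20.9% lower by edgeR. The medians were 3.90 for G1/S, 4.45 for G2/M and 4.10 for broad genes, beside 1.10 over all genes, and the range ran from Kif23 at 0.93 ± 0.16 to Cdc20 at 5.29 ± 0.37. TMM factors moved the median of all genes by -0.96 and the share of higher calls to 52.0%, against 73.5% with total UMIs, and put Kif23 at -0.076. DESeq2 moved the median by -0.65 and the share to 60.7%. Top2a ran from 421 to 698 CPM in monocytes (median 555), against 3.02 to 75.5 CPM in mature neutrophils (26.7), with no overlap.

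Blood monocytes, by contrast, were nearly without the mitotic genes. All 40 genes were higher in marrow than in blood monocytes, beside 24.3% of all 9311 genes higher and 14.7% lower by edgeR. The G2/M sum ran from 2932 to 4521 CPM in marrow (median 3627), against 35.9 to 80.7 CPM in blood (62.9), and the G1/S sum from 1426 to 2182 CPM in marrow (1769), against 74.2 to 133 CPM in blood (92.4). The G2/M median was 7.15 on the log2 scale, or 6.96 with the 3 genes that have no UMI in blood at their bound, and the G1/S median was 4.18. Cdk1 had 1038 UMIs in marrow and 0 in blood, and was at least 244-fold higher, with the floor of 3 counts over the group. Mki67 was at 77.4 times the blood level (95% exact counting interval 56.1 to 110), and Kif23 at 6.86 times (5.45 to 8.75). Pcna, which also serves DNA repair, moved least, at 2.31 ± 0.15. Azurophil markers summed to 590.5 to 1372 CPM in the marrow monocytes over hashtags, against 19.7 to 139 CPM in those of blood, and their part in the difference was not tested. The share of higher among all called genes was 50.9% with TMM, against 62.4% with total UMIs.

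Spleen monocytes lay between and were uneven. Against blood 37 genes were higher and 0 lower, beside 18.4% of all genes higher and 4.95% lower by edgeR, with Ccne1, Ccne2 and Cdc6 not called. The medians were 2.22 for G1/S and 4.98 for G2/M, or 4.54 for G2/M with 3 genes at their bound. The G2/M sum ran from 129 to 2689 CPM in spleen (median 625), and hashtag 4 was the highest. Of 487 spleen monocytes with 1 hashtag, 10 (2.05%) held 50% of the UMIs of the G2/M genes without Kif23. B and plasma cell markers ran from 51.1 to 25433 CPM over spleen hashtags, against 0 to 3.70 CPM over blood hashtags, and their part in the result was not tested. The share of higher among all called genes was 55.5% with DESeq2 and 59.7% with TMM, against 78.8% with total UMIs.

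Tumor monocytes gave 3 hashtag sums and lacked the mitotic level of marrow. Against blood 2 genes were higher, Mcm3 at 1.98 ± 0.63 and Cenpa at 2.06 ± 0.66, and Hmgb2 was lower at -1.46 ± 0.27 (edgeR adjusted p = 7.05e-05), beside 17.2% of all genes higher and 16.3% lower. Mcm3 was at 10.3, 21.7 and 27.7 CPM in the 3 tumor sums, against 0 to 11.1 CPM in blood (median 5.49), with overlap. Hmgb2 ran from 247 to 274 CPM in tumor, against 658 to 750.2 CPM in blood (median 716), with no overlap. Without hashtag 3 there were 0 genes higher, and DESeq2 called 8 higher and 2 lower. The 4 macrophage markers summed to between 1489 and 4821 CPM over hashtags in tumor monocytes, against 349.8 to 1918 CPM in blood monocytes, and their part in these calls was not tested. Several hashtags marked 41.3% of tumor cells and 94 of the 125 tumor monocytes, which were left out of the sums. The 3 sums held 6 to 11 cells each. In the 94 cells the G2/M sum was 273 CPM at a median depth of 33178 UMIs. In the 31 tumor monocytes with 1 hashtag it was 121 CPM at 14541 UMIs.

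Cell cycle regulators outside the 40 genes, from a fixed list of 37, moved in both directions. Of 35 tested, 7 rose and 12 fell from Kit-positive cells to granulocyte progenitors, beside 18.7% of all genes higher and 23.6% lower by edgeR, and Mycn, a growth-driving transcription factor, had the largest drop at -4.80 ± 0.49. Of the D cyclins, which start the cycle on growth signals, Ccnd1 fell by 2.23, Ccnd2 by 1.23 and Ccnd3 by 0.33 at this step, while the CDK inhibitors Cdkn2c and Cdkn2d rose by 0.85 and 0.37. From progenitors to immature neutrophils 8 rose and 20 fell, beside 18.1% of all genes higher and 62.9% lower, and with TMM 16 were higher and 12 lower. The kinase genes Cdk4 and Cdk6, partners of the D cyclins, were at -4.27 ± 0.15 and -3.55 ± 0.18, Myc at -4.81 ± 0.22 and Ccnd2 at -4.24 ± 0.29, while Mxd1, which opposes Myc, was at 4.45 ± 0.23, Cdkn2d at 1.81 ± 0.12, Ccnd3 at 1.45 ± 0.11 and the CDK inhibitor Cdkn1b at 1.01 ± 0.10. Ccnd1 was at -2.49 and the CDK inhibitor Cdkn1a at -1.51. All of these were called by edgeR with total UMIs, at a step where TMM moves the median of all genes by 0.94.

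At the step to mature neutrophils in marrow 8 of 35 regulators rose and 20 fell, beside 25.2% of all genes higher and 29.1% lower by edgeR. The share that rose was near that of all genes. The antiproliferative genes Btg1 and Btg2 rose by 3.05 ± 0.12 and 1.97 ± 0.13, Ccnd3 by 1.39 ± 0.10 and Cdkn1b by 1.14 ± 0.09. Cdc25a, a phosphatase that frees CDKs, fell by 4.19, and the CDK inhibitors Cdkn2c by 2.17, Cdkn1a by 1.12 and Cdkn2d by 0.27, while Ccnd2 rose by 2.27. In spleen 7 of 35 regulators rose and 21 fell, beside 29.2% of all genes higher and 26.4% lower by edgeR. There Btg1 was at 3.99 ± 0.14, Ccnd3 at 2.76 ± 0.12, Ccnd2 at 3.88 ± 0.46, Cdkn1b at 2.07 ± 0.11, Cdkn2c at -4.87 ± 0.47 and Cdkn1a at -1.27 ± 0.55. The difference between tissues was called higher for 5 of 35 regulators and lower for 8, beside 9.84% of all genes higher and 5.21% lower by edgeR. Among them were Ccnd3 (1.37 ± 0.15), Cdkn1b (0.93 ± 0.15), Btg1 (0.94 ± 0.18) and Cdkn2c (-2.70 ± 0.63).

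Lists of 14 other S phase genes and 18 other mitosis genes were counted in the same fits. From progenitors to immature neutrophils 14 of 14 other S phase genes fell (median -2.54), beside 62.9% of all genes lower and a median of -0.98 over all genes. Of 18 other mitosis genes 11 fell (median -0.57), a share near that of all genes. With TMM 13 S phase genes were lower (median -1.58), whereas 10 mitosis genes were higher and 2 lower (median 0.41). From immature to mature neutrophils in marrow 12 of 14 and 18 of 18 fell, beside 29.1% of all genes lower, and in spleen 13 of 14 and 17 of 18, beside 26.4%. From Kit-positive cells to granulocyte progenitors 3 and 2 rose and 0 fell, beside 18.7% of all genes higher and 23.6% lower by edgeR. In spleen Kit-positive cells 6 and 9 were lower than in marrow and 0 higher, beside 20.4% of all genes lower and 17.8% higher. Between immature neutrophils of spleen and marrow 0 of 13 and 0 of 18 were called by edgeR, and of 28 regulators Cdc25a alone, at 0.71 ± 0.16. Of all genes 0.611% were higher and 0.522% lower there.

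In Kit-positive cells of spleen 6 of 35 regulators were higher and 16 lower than in marrow, beside 17.8% of all genes higher and 20.4% lower by edgeR, with Ccnd1 at 2.32 ± 0.27 and Btg2 at 2.34 ± 0.28 on one side and Cdk6 at -0.87 ± 0.13 and Ccnd2 at -0.70 ± 0.11 on the other. Ccnd3 was at 0.71 and Cdkn2d at -0.65. In mature neutrophils of marrow against blood 6 of 20 regulators were higher and 6 lower, beside 11.5 and 36% of all genes, with Btg1 at -1.34 ± 0.04, Cdkn1b at -1.03 ± 0.07, Ccnd2 at -1.71 ± 0.15 and Ccnd3 at -0.89 ± 0.13. Spleen against blood gave 0 higher and 2 lower, beside 11.2 and 6.55% of all genes, Cdkn1b at -0.36 ± 0.07 and Btg1 at -0.22 ± 0.04. Marrow monocytes against mature neutrophils of marrow gave 24 of 35 higher and 6 lower, beside 57.9 and 20.9% of all genes, with Cdk4 at 4.08 ± 0.23, Cdkn1a at 4.24 ± 0.37, Cdkn2c at 3.55 ± 0.26 and Ccnd1 at 2.29 ± 0.91 on one side and Ccnd3 at -1.31 ± 0.11 and Cdkn1b at -1.0 ± 0.10 on the other. Marrow against blood monocytes gave 22 of 32 higher and 3 lower, beside 24.3 and 14.7% of all genes, with Cdkn2c at 2.56 ± 0.23, Cdkn2d at 1.07 ± 0.14 and Ccnd3 at -0.30 ± 0.11. Spleen against blood monocytes gave 15 higher and 1 lower, beside 18.4 and 4.95% of all genes, with Ccnd1 at 2.42 ± 0.69, Ccnd2 at 1.64 ± 0.59, Cdkn2c at 0.95 ± 0.27 and Ccnd3 at 0.47 ± 0.11. In tumor against blood monocytes 7 of 32 were higher and 3 lower, beside 17.2 and 16.3% of all genes. The CDK inhibitor Cdkn1a was at 4.85 ± 0.19, Ccnd1 at 4.43 ± 0.88, Ccnd2 at 3.16 ± 0.80 and Ccnd3 at -0.65 ± 0.18.

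For 11 of the 40 genes the annotated span overlaps another gene in RefSeq GRCm38.p6, so reads of the partner could be counted with them. These are Aurka, Ccna2, Ccne2, Cdc20, Gins2, Kif11, Mcm7, Pclaf, Tk1, Top2a and Tpx2. Pclaf lies within Trip4. Whether counting used strand is not given in the sources used here.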

How the data were processed

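The authors deposited raw UMI counts per gene and cell barcode, and antibody tag counts, as 10x matrices, made with Cell Ranger 7.0.1 per the submitters' processing notes. No normalisation had been applied per the file headers and the whole-number values. A hashtag was assigned at 20 or more counts if the next one had no more than 1 count for every 3, and cells with several or no hashtag, which include doublets, were left out of the sums. No other doublet caller was run and no deposited cell was filtered out. Gene UMIs were summed per hashtag, tissue and class where at least 10 cells stood (5 in tumor) and tested in edgeR 4.0.16 (R 4.3.3, limma 3.58.1) by the quasi-likelihood test with total UMIs as library sizes, over genes with at least 100 summed UMIs and with at least 3 sums per group. Stage comparisons used 1 fit of marrow and spleen sums with hashtag within tissue as a block, and tissue comparisons 1 fit per class without it. Benjamini-Hochberg adjustment ran over all genes tested, with calls at 0.05. DESeq2 1.42.0 was an alternative. The fit was tested on simulated data. Shares, ratios and motifs were computed in Python 3.11.15 (numpy 2.4.6, scipy 1.17.1, pandas 2.3.3) and plots drawn with matplotlib 3.10.9.

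The 40 members, the class rules and the lists of regulators and markers were chosen with earlier results of these data known. All members are reported. Of the other lists the text gives counts and names from up to 6 genes per comparison with the smallest adjusted p, plus called CDK inhibitors and D cyclins. The blood, marrow, spleen and tumor libraries held 34232732, 64092351, 50111292 and 7163843 UMIs, and intervals of counts and shares cover counting error only. Same-hashtag sums of blood and the other tissues deviated together. Correlations were at least 0.51 between marrow and blood and 0.70 between spleen and blood for mature neutrophils, and at least 0.46 and 0.29 for monocytes. A blood hashtag correlated best with its own number for 6 of 8 hashtags in marrow and 8 of 8 in spleen for mature neutrophils. For monocytes this held for 5 of 8 in each, so the pairing is not complete. Antibody counts other than hashtags were not used here.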

Additional observations from a re-analysis of the deposited data

Results flagged for a closer look

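Single hashtags far from the other sums of their group were found in 34 of 187 groups tested by Dixon's ratio. Chance flags about 1 in 20 where values are normally spread. Some flagged values rest on few UMIs, where that rate need not hold. Spleen monocytes of hashtag 4 stood out in most of the measures described, with a G2/M sum of 2689 CPM (2607 CPM without Kif23), Mki67 at 341, Ccnb2 at 87.0, Cdc20 at 42.8, Ube2c at 284, Pclaf at 313, Hmgb2 at 2404, Tubb5 at 431 and Stmn1 at 431 CPM. Kit-positive marrow cells of the same hashtag had a high G2/M sum of 3274 CPM, with Mki67 at 485 and Top2a at 505 CPM, and its granulocyte progenitors had Ccnb2 at 137 CPM. Its marrow mature neutrophils were high in Top2a, at 75.5 CPM, and Stmn1, at 162 CPM.

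Immature neutrophils of marrow with hashtag 7 were low in Pclaf, at 132 CPM, and Stmn1, at 222 CPM. Those of spleen with hashtag 1 were low, with a G2/M sum of 1270 CPM (1244 CPM without Kif23) and Top2a at 113 CPM, and those of spleen with hashtag 7 were high in Pcna, at 176 CPM. Mki67 was high at 365 CPM in Kit-positive spleen cells of hashtag 6. Among blood mature neutrophils hashtag 2 was high in Mcm3 at 3.89, Mcm6 at 5.44, Pclaf at 7.52 and Stmn1 at 4.67 CPM, and hashtag 7 in Ube2c at 2.42 CPM. Hashtag 5 was flagged for Rrm2 at 0.409 CPM, where all other sums were 0. Among marrow mature neutrophils Ccnb2 was high at 20.5 CPM in hashtag 5 and Pcna at 52.9 CPM in hashtag 2, and among those of spleen Ube2c at 6.19 CPM in hashtag 6. Stmn1 was high at 14.3 CPM in blood monocytes of hashtag 6, and Kif23 at 158 CPM in marrow monocytes of hashtag 7.

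The step from immature to mature neutrophils differed between spleen and marrow for 25 of the 40 genes by the interaction test in edgeR, 24 of them lower and Kif23 higher, beside 5.21% of all genes lower and 9.84% higher. With the monocyte and Kit rules applied first 5 were lower and Kif23 was higher, and in thinned cells 3 of 35 were lower and 1 higher. Among the genes shown by sample, the difference of log2 fold changes, spleen minus marrow, was -2.62 for Mcm3, -2.87 for Mcm6, -2.54 for Ube2c, -3.25 for Stmn1, -2.12 for Mki67, -3.72 for Pclaf, -3.69 for Top2a, -2.88 for Rrm2, -1.28 for Tubb5 and 1.99 for Kif23.

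Cells that met no class rule also held mitotic transcripts. The G2/M sum without Kif23 was 109 CPM in 1165 blood cells, 2163 CPM in 392 marrow cells, 721 CPM in 1275 spleen cells and 646 CPM in 255 tumor cells.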

How the results depend on the processing

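Each count below is of genes called in the main direction, by edgeR unless DESeq2 is named. Leaving out 1 hashtag at a time gave 7 to 10 genes for granulocyte progenitors against Kit-positive cells, 30 to 34 for immature neutrophils against progenitors, 33 to 37 for mature against immature neutrophils in marrow, 38 to 39 in spleen, 17 to 24 for the difference between those steps, 40 to 40 for monocytes against mature neutrophils and for marrow against blood monocytes, 11 to 22 for Kit-positive cells, 0 to 3 for immature neutrophils, 7 to 11 for marrow and 0 to 1 for spleen against blood mature neutrophils, 35 to 37 for spleen and 0 to 3 for tumor against blood monocytes.

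Progenitors against Kit-positive cells (main 9) gave 3 with thinned cells, 5 with doubled class thresholds and 17 with the Kit rule first. Immature neutrophils against progenitors (main 32 lower) gave 19 with DESeq2 and 17 with TMM, with 4 and 12 genes higher. TMM changed the scaling alone, and DESeq2 also the test. The stage difference between tissues (main 24) gave 3 thinned and 5 with the monocyte and Kit rules first. Kit-positive cells (main 18) gave 4 thinned. Immature neutrophils of spleen against marrow (main 0) gave 1 with DESeq2, 1 with a hashtag margin of 10 and 1 with the Kit rule first. Marrow against blood mature neutrophils (main 12) gave 30 with a minimum of 10 summed UMIs, where 40 genes were tested, 0 thinned and 3 with the monocyte and Kit rules first. Spleen against blood (main 2) gave 1 with TMM, 4 with a minimum of 10 summed UMIs, 0 with a hashtag margin of 10, 0 thinned, 1 with doubled thresholds, 1 with the monocyte and Kit rules first and 4 with the replicate block. Thinned monocytes gave 10 of 10 tested for marrow, 6 of 10 for spleen and 0 for tumor against blood, and DESeq2 gave 8 for tumor. Thinning lowered the number of genes tested. Otherwise the cause was not tested.

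Values that changed sign were as follows. For immature neutrophils against progenitors DESeq2 gave Tpx2 0.0016, Ccna2 0.0049, Cenpe 0.065, Cenpa 0.11, Kif23 0.36, Ccnb2 0.16 and Kif11 0.19. TMM gave Tpx2 0.34, Aurka 0.62, Ccna2 0.38, Cenpe 0.45, Cdc20 0.80, Cenpa 0.51, Plk1 0.66, Mki67 0.63, Kif23 0.74, Ccnb2 0.59, Cdk1 0.30, Top2a 0.28, Birc5 0.37, Ccnb1 0.30 and Kif11 0.54, and the Kit rule first gave Hmgb2 -0.14. For monocytes against mature neutrophils TMM gave Kif23 -0.076. Thinned cells gave Mcm6 2.11 and Mcm4 0.10 at the spleen step, Mcm6 2.87 and Rrm1 0.24 for the difference between tissues, and Mki67 -0.25 in marrow against blood mature neutrophils, where the monocyte and Kit rules first gave Mki67 -0.75. In Kit-positive cells the Kit rule first gave Pclaf -0.47 and Tubb5 0.0041.

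With the replicate block, marrow against blood mature neutrophils gave 14 higher and 1 lower, marrow and spleen against blood monocytes 40 and 37 higher, and tumor against blood 2 higher and 1 lower. For Kit-positive cells and immature neutrophils, whose same-hashtag sums did not all deviate together (lowest correlations -0.10 and -0.41), the block gave 18 lower with 2 higher and 0 called. Leaving out low-quality cells changed no call. Spleen granulocyte progenitors and tumor mature neutrophils had too few sums for a fit and were not run.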

Other observations

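Over the 13 groups of class and tissue and 12657 genes, the genes whose pattern was most like the G1/S sum were Bard1, with a Pearson r of 0.990, Diaph3 and Brip1 (both 0.989) and Wdhd1 (0.986). Those most like the G2/M sum were Cit (0.976), Cep55 (0.975), Kif18a (0.972) and Cip2a (0.964). Among the 40 genes Mcm5 had an r of 0.996 with the G1/S sum and Ccnb2 0.985 with the G2/M sum, whereas Kif23 had 0.101 with the G1/S sum and 0.506 with the G2/M sum, and Hmgb2 0.624 and 0.849. The 13 groups share libraries and hashtags, so these values describe the groups and carry no test.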
